A study of Gallus gallus with 6 samples.

Results

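The genes described here are a list of 43 genes of mitosis and chromosome segregation, found in the tables by their symbols. Of the 21062 genes in the tables of normalized read counts, 38 carried a symbol on the list and 37 of these had enough reads to be tested. The remaining member, CCNB3, a cyclin B, had 7, 1 and 0 reads in the SU5402 libraries, against 0 reads in each DMSO library, and was listed but not tested. MKI67, which encodes the proliferation antigen Ki-67, had a row without a symbol that was found through its NCBI gene ID, so its values are given but it is not counted among the members. PLK4, SPC24, KIF20A and PRC1 were not analysed here.

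RNA was sequenced from wild type chick wing bud explants, which were taken at stage HH20 and cultured in Matrigel with serum for 48 h. In one set of explants SU5402, an inhibitor of Fgf receptors, was added at 5 µM at the start of culture, and in the control set only its solvent DMSO. Each treatment had 3 libraries, and each library was made from a pool of explants dissected from the posterior part of the wing bud, so the values are averages over pools and over every cell type in an explant. The study asked whether mesodermal cells need Fgf signalling to proliferate. It addressed this with flow cytometry and EdU labelling, which showed no significant difference between SU5402 and DMSO explants. The RNA compared here is from whole explants and does not separate mesodermal cells from others.

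In mitosis, the kinase CDK1 with its cyclins starts chromosome condensation by the condensin complex and the building of the spindle by motor proteins. Kinetochores then form on the centromeres and bind the spindle microtubules, and checkpoint kinases hold back anaphase until every chromosome is attached. CDC20 then activates the anaphase-promoting complex, separase cuts cohesin, and an actomyosin ring divides the cell. In vertebrate cells most of these genes are transcribed in G2 and M phase, and for this reason their RNA is widely used as a readout of how many cells in a tissue are dividing. Limb bud mesenchyme is a tissue of rapidly dividing cells.

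The mitosis genes differed little between SU5402 and DMSO explants. Of the 37 members tested, 2 fell with SU5402, the cyclin CCNA2 and the spindle motor KIF11, at an adjusted p below 0.05 in limma with p-values adjusted by Benjamini-Hochberg over all 16324 genes tested. None was higher at this threshold and 35 were not called, and none passed the threshold together with a 2-fold change, by limma or in any other setting tried. At an unadjusted p below 0.05 there were 7 members, 5 lower and 2 higher. The genes called after adjustment, 30.4% of all genes, also pass this unadjusted threshold. Over all genes tested, 16.0% were lower, 14.4% were higher and 30.4% were called in either direction, against 5.41% of the members in either direction. MKI67, which is on the list but outside this count, was also called lower (adjusted p = 0.043 by limma). Among the 10742 genes with a mean between 245.6 and 21553 normalized counts, which is the range the members span, 32.0% were called. In these bulk samples, fewer dividing cells and less RNA in each dividing cell cannot be told apart.

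The median log2 fold change of the members was -0.03 and that of all genes tested was 0.01, with 23 members below 0 and 14 above. When reads were scaled by library total or by upper quartile instead, the members' median was 0.02 each time and that of all genes 0.06, so the difference between the members and all genes stayed at -0.04. With either of these scalings 18 members were below 0, and with single libraries left out 21 to 26 were. The absolute log2 fold change was below 0.2 in 33 of the 37 members and at most 0.35. Its median was 0.07 among members, against 0.26 among all genes and 0.18 among genes of the members' range of level. The 95% interval of the log2 fold change lay within a 2-fold change for 37 of 37 members, within a 1.5-fold change for 36 and within a 1.25-fold change for 26. It reached furthest down in KIF11, to -0.53, and furthest up in CENPK, to 0.75.

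The count of calls depended on the test and on single libraries. EdgeR's quasi-likelihood test with TMM factors, DESeq2 and limma with an intensity trend each called 5 members lower (CCNA2, KIF11, KIF4A, NCAPG and TPX2) and 3 higher (ANLN, CENPI and CENPK), where edgeR called 19.9% of all genes lower and 17.9% higher, DESeq2 20.3% lower and 18.2% higher, and limma with the trend 20.3% lower and 18.1% higher. With limma, only CCNA2 remained called without DMSO replicate 1 and only KIF11 without SU5402 replicate 3, both remained without SU5402 replicate 2, and neither was called when SU5402 replicate 1 or DMSO replicate 2 or 3 was left out. Over the 6 omissions the adjusted p was 0.045 to 0.073 for CCNA2 and 0.020 to 0.057 for KIF11 by limma, and 20.4% to 23.2% of all genes were called.

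**Figure D1:**
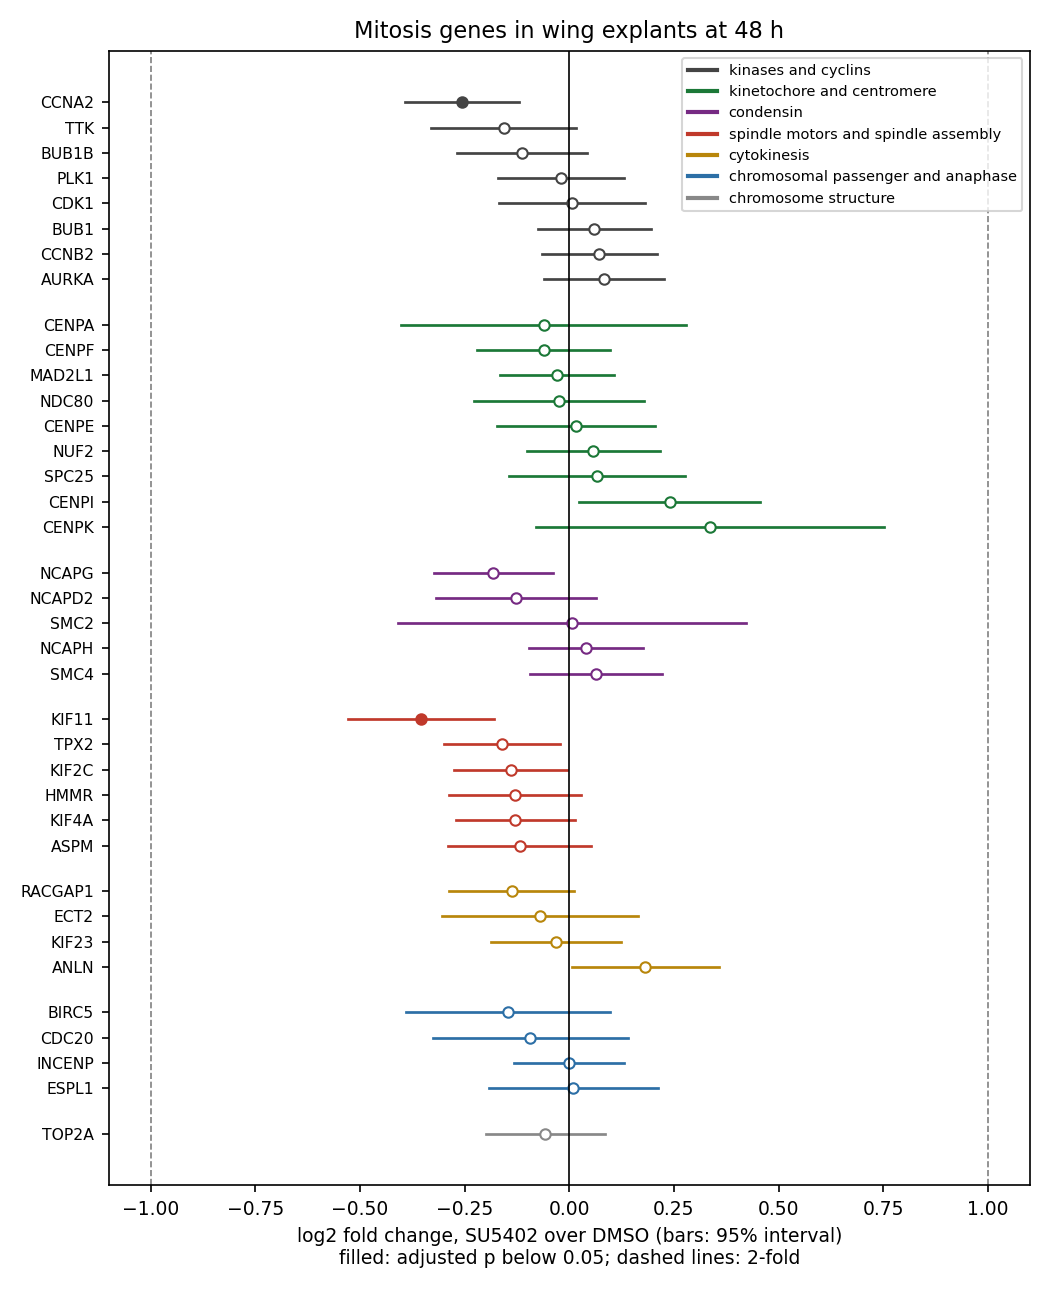
Log2 fold change of each of the 37 members, SU5402 over DMSO (x axis), with its 95% interval as a bar, grouped by role. Filled points are the 2 members at an adjusted p below 0.05, CCNA2 and KIF11, and every interval lies inside the dashed lines at a 2-fold change.

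Summed over the members, the share of reads was 0.495% ± 0.0178 in SU5402 explants and 0.495% ± 0.00542 in DMSO explants (SD, n = 3 each). By library this share was 0.480%, 0.515% and 0.490% with SU5402, against 0.491%, 0.501% and 0.492% with DMSO. SU5402 replicate 2 was thus above every DMSO library, and replicates 1 and 3 were below. The share is scaled by library total, while normalized counts are scaled by DESeq2 size factors. The summed normalized counts were 157918, 168426 and 161468 in the SU5402 libraries, against 168181, 169551 and 166930 in the DMSO libraries. SU5402 replicate 2 lay inside the DMSO range of this sum, while SU5402 replicates 1 and 3 lay below it.

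The spindle motors and spindle assembly factors were the subgroup with the lowest median, at -0.13 on the log2 scale, and each of the 6 had a negative log2 fold change, from -0.35 to -0.12. These 6 genes also stayed below 0 in each other fit tried, and with scaling by library total their median was -0.09. By their other role KIF4A and KIF2C would leave this subgroup and CENPE and KIF23 would join it. CENPE and KIF23 had log2 fold changes of 0.02 and -0.03. KIF11 is the motor that slides antiparallel microtubules apart and thereby separates the spindle poles. It lies on chromosome 6 (GRCg6a, 21687983 to 21704004) and had 3869, 4181 and 3635 normalized counts in the SU5402 libraries, against 5021, 4936 and 4956 in the DMSO libraries. Every SU5402 library was below every DMSO library, and the 3 DMSO libraries lay close together. The fall in KIF11 was 1.28-fold, a log2 fold change of -0.35 (limma, SE 0.07, adjusted p = 0.017).

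The other spindle members were not called in the main limma fit, while edgeR and DESeq2 each called TPX2 and KIF4A lower. TPX2, which activates AURKA and helps microtubules to form around chromosomes, had 8937, 9479 and 9129 normalized counts with SU5402, against 10473, 10306 and 9991 with DMSO. The treatments did not overlap for TPX2, and its log2 fold change was -0.16 (limma, SE 0.06, adjusted p = 0.083, with edgeR 0.015). ASPM, which acts at the spindle poles, had the smallest change of the subgroup. It had 6336, 6857 and 6329 normalized counts with SU5402 and 6853, 7464 and 6881 with DMSO, so that the highest SU5402 library of ASPM lay within the DMSO range. Its log2 fold change was -0.12 (limma, SE 0.07, adjusted p = 0.24). KIF4A is a motor on chromosome arms, KIF2C takes microtubules apart at centromeres, and HMMR is a spindle microtubule-binding protein. Their log2 fold changes were -0.13, -0.14 and -0.13, each with no overlap between treatments. Over all genes tested, 49.7% did not overlap.

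Among the kinases and cyclins, 8 of the 10 listed genes were tested and 1 fell, where 16.0% of all genes were lower. The median log2 fold change of these 8 was -0.01. CCNA2 encodes cyclin A2, which acts in S phase and in G2. It lies on chromosome 4 (GRCg6a, 53933630 to 53938773) and had 3683, 3765 and 3576 normalized counts in the SU5402 libraries, against 4302, 4500 and 4360 in the DMSO libraries. The treatments did not overlap for CCNA2, and the fall was 1.19-fold, with a 95% interval of the log2 fold change from -0.39 to -0.12 (adjusted p = 0.021 by limma).

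CDK1 and its B-type cyclin were not called. CDK1, the kinase that drives entry into mitosis, had 6857, 6805 and 7622 normalized counts with SU5402, against 7291, 6943 and 6936 with DMSO. The SU5402 libraries of CDK1 reached both below and above the DMSO libraries. Its log2 fold change was 0.01, with a 95% interval from -0.17 to 0.18, and its sign turned with the library left out. CCNB2 had 5003, 5279 and 5304 normalized counts with SU5402, against 5012, 4971 and 4847 with DMSO, and its interval ran from -0.07 to 0.21. The lowest SU5402 library of CCNB2 lay inside the DMSO range and the others lay above it.

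The mitotic kinases lay close to their DMSO levels. The highest log2 fold change of the subgroup belonged to AURKA, at 0.08 (limma, SE 0.06, adjusted p = 0.32). AURKA had 2189, 2256 and 2277 normalized counts with SU5402, against 2107, 2202 and 2040 with DMSO, and the treatments overlapped. The tables name this row AURKA, a centrosome kinase, while RefSeq gives its NCBI gene the symbol AURKB, the centromere kinase. PLK1, the kinase that acts from centrosome maturation to cytokinesis, had a log2 fold change of -0.02. The checkpoint kinases BUB1 and TTK and the checkpoint protein BUB1B had 0.06, -0.16 and -0.11. Of these, BUB1 and TTK did not overlap between treatments, BUB1 being above and TTK below DMSO, and neither was called by limma or edgeR.

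The kinetochore and centromere genes had a median log2 fold change of 0.02. None of the 9 tested was called by limma, where 30.4% of all genes were called. At an unadjusted p below 0.05 there was 1, CENPI. EdgeR called 17.9% of all genes higher and DESeq2 18.2%, and in this subgroup each called 2 higher, CENPI and CENPK. Both encode parts of the inner kinetochore network that sits on centromeric chromatin. CENPI had 1304, 1242 and 1442 normalized counts with SU5402, against 1057, 1202 and 1116 with DMSO. Every SU5402 library of CENPI was above every DMSO library, with a log2 fold change of 0.24 (limma, SE 0.09, adjusted p = 0.092, with edgeR 0.037).

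CENPK, on chromosome Z, had 1353, 2002 and 1738 normalized counts with SU5402, against 1299, 1221 and 1473 with DMSO. The lowest SU5402 library of CENPK lay within the DMSO range. Its log2 fold change of 0.34 was the highest of the members, with an SE of 0.16 (adjusted p = 0.18 by limma and 0.033 by edgeR). CENPA, the histone variant that marks centromeres, had the fewest reads of the tested members. It had 209, 276 and 237 normalized counts with SU5402, against 283, 237 and 231 with DMSO, and its 95% interval ran from -0.40 to 0.28. The remaining members of the subgroup lay between -0.06 and 0.07. They are NDC80, NUF2 and SPC25 of the complex that grips microtubules, the kinetochore motor CENPE, the kinetochore protein CENPF and the checkpoint protein MAD2L1.

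Condensin compacts chromosomes, and all 5 subunits of condensin I were tested. None was called by limma, where 30.4% of all genes were called, while NCAPG had an unadjusted p below 0.05. The median log2 fold change of the 5 subunits was 0.01. The sign of this median was not stable, since it is the value of SMC2, and it was -0.15 without SU5402 replicate 2 and -0.12 with the level of chromosome W genes as a covariate. NCAPG, whose gene overlaps others on the opposite strand, had 2086, 2207 and 2094 normalized counts with SU5402, against 2475, 2340 and 2428 with DMSO, and the treatments did not overlap. Its log2 fold change was -0.18 (limma, SE 0.06, adjusted p = 0.064, with edgeR 0.031). SMC4, an ATPase core subunit, had 4896, 5109 and 5204 normalized counts with SU5402, against 4600, 5031 and 4922 with DMSO. Only the lowest SU5402 library of SMC4 lay within the DMSO range, and its log2 fold change was 0.06. The regulatory subunits NCAPD2 and NCAPH had log2 fold changes of -0.13 and 0.04, both with overlap between treatments. TOP2A, the topoisomerase that untangles sister chromatids, had 21293, 21817 and 20285 normalized counts with SU5402, against 21702, 22480 and 21744 with DMSO. These overlapped, and the log2 fold change of TOP2A was -0.06 (95% interval -0.20 to 0.09).

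Of the 6 listed cytokinesis genes 4 were tested, with a median log2 fold change of -0.05. None was called by limma, where 30.4% of all genes were called. ANLN, anillin, which links the contractile ring to the membrane, was 1 of these 4 and had 4004, 4515 and 4200 normalized counts with SU5402, against 3864, 3757 and 3585 with DMSO. Every SU5402 library of ANLN was above every DMSO library, and its log2 fold change was 0.18 (limma, SE 0.07, unadjusted p = 0.045, adjusted p = 0.11, with edgeR 0.026). RACGAP1, the GTPase-activating part of the central spindle complex, had 2307, 2128 and 2315 normalized counts with SU5402, against 2501, 2447 and 2472 with DMSO. Here every SU5402 library was below every DMSO library, and the log2 fold change of RACGAP1 was -0.14 (limma, SE 0.06, adjusted p = 0.14). Its motor partner KIF23 had a log2 fold change of -0.03 and the RhoA activator ECT2 of -0.07, both with overlap.

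The chromosomal passenger and anaphase genes had a median log2 fold change of -0.05. None of the 4 was called by limma, edgeR or DESeq2 or had an unadjusted p below 0.05. Limma called 30.4% of all genes. BIRC5, survivin, had 1938, 1918 and 1618 normalized counts with SU5402, against 2111, 1882 and 2051 with DMSO. Its log2 fold change was -0.15 (95% interval -0.39 to 0.10), with SU5402 replicate 3 below the other libraries. ESPL1, separase, had 5917, 5291 and 5542 normalized counts with SU5402, against 5113, 5767 and 5768 with DMSO, and the treatments overlapped throughout, with a log2 fold change of 0.01. INCENP, the scaffold that holds the passenger complex together, had the smallest spread of the members, and its log2 fold change was 0.00 (95% interval -0.13 to 0.13). CDC20 had a log2 fold change of -0.09.

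MKI67, a widely used marker of dividing cells, lies on chromosome 6 (GRCg6a, 34319708 to 34339712). It had 6819, 7922 and 7160 normalized counts in the SU5402 libraries, against 8737, 8945 and 8716 in the DMSO libraries. Every SU5402 library of MKI67 was below every DMSO library, and it fell 1.21-fold, a log2 fold change of -0.27 (limma, SE 0.07, adjusted p = 0.043). The call on MKI67 was lost without DMSO replicate 1, 2 or 3 and without SU5402 replicate 1 or 3, with limma adjusted p of 0.097 to 0.12. It was also lost with scaling by library total (adjusted p = 0.079), with upper-quartile scaling (adjusted p = 0.075) and with no filter (adjusted p = 0.077). Without SU5402 replicate 2 the adjusted p of MKI67 was 0.030. MKI67 was also called lower with edgeR and TMM factors (adjusted p = 0.0023), DESeq2 (adjusted p = 8.1e-05) and limma with an intensity trend (adjusted p = 0.0018). In limma it was still called with FPKM (adjusted p = 0.031), a filter of 50 (adjusted p = 0.029) and the chromosome W covariate (adjusted p = 0.034).

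**Figure D2:**
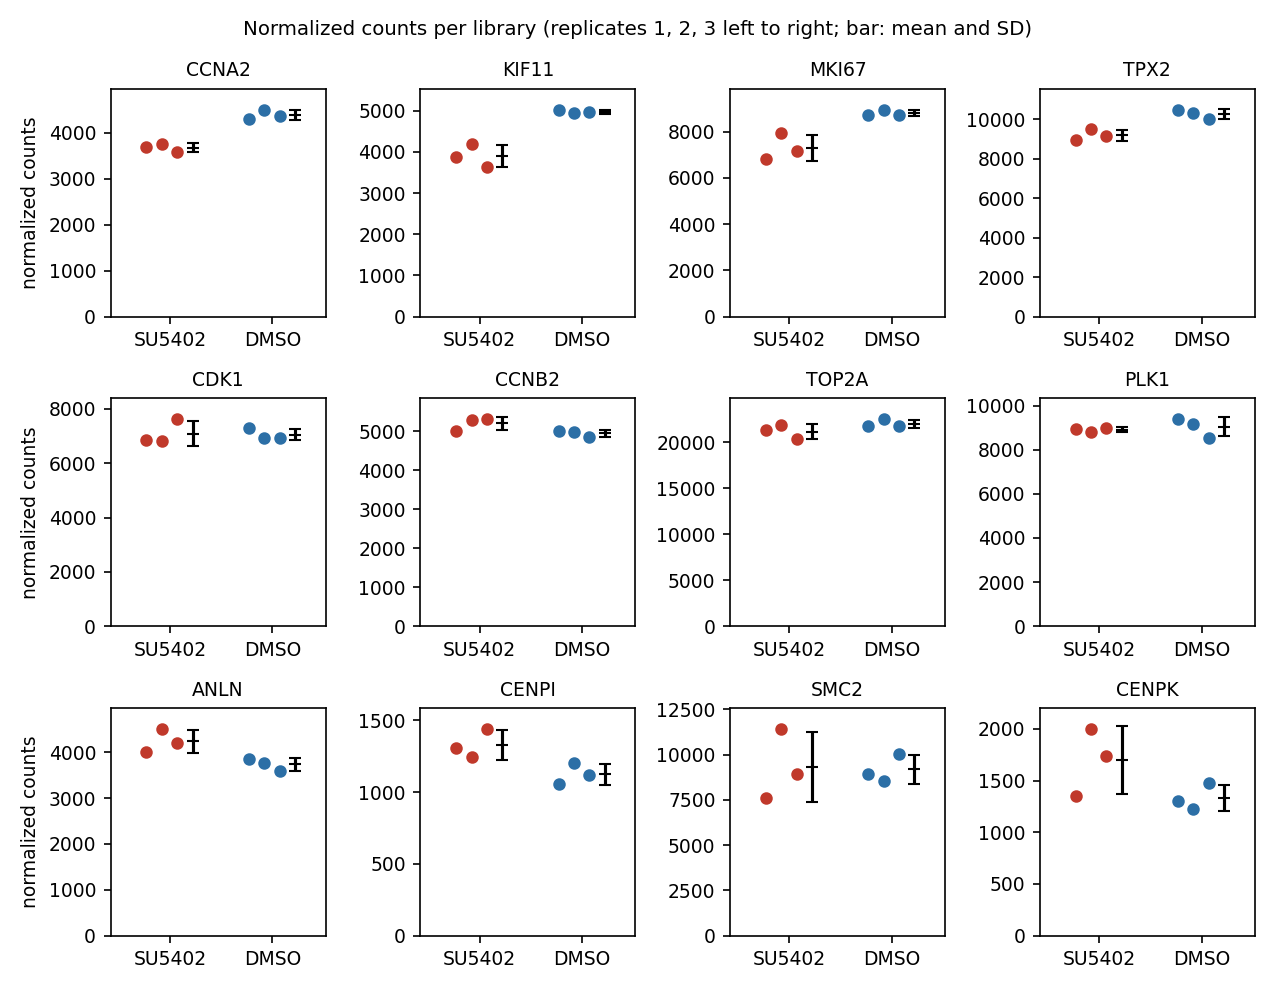
Normalized counts (y axis, from 0) of 11 members and MKI67 in the 3 SU5402 (red) and 3 DMSO (blue) libraries, with the mean and SD beside them. CCNA2, KIF11, MKI67 and TPX2 in the top row lie lower in every SU5402 library, CDK1, CCNB2, TOP2A and PLK1 overlap, and ANLN and CENPI lie higher in every SU5402 library.

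Of the 37 tested members, 12 did not overlap between treatments, 9 of them lower and 3 higher with SU5402, where 49.7% of all genes tested did not overlap. Those lower were CCNA2, TTK, NCAPG, KIF11, KIF4A, KIF2C, TPX2, HMMR and RACGAP1, and those higher were BUB1, CENPI and ANLN.

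Levels can be set side by side across genes as FPKM, which divides by gene length. On this scale the tested members spanned 7.45 to 173 FPKM. CDK1 was the highest, at 173 ± 11.2 FPKM in SU5402 explants and 172 ± 4.96 FPKM in DMSO explants (SD, n = 3 each). TOP2A followed at 101 ± 3.72 FPKM with SU5402 and 105 ± 2.09 FPKM with DMSO. PLK1 had 90.7 ± 1.06 FPKM with SU5402 and 92.1 ± 4.44 FPKM with DMSO, and CCNB2 85.3 ± 2.74 FPKM with SU5402 and 81.2 ± 1.41 FPKM with DMSO. CCNA2 had 57.2 ± 1.48 FPKM with SU5402, against 68.3 ± 1.59 FPKM with DMSO, so that cyclin A2 RNA was below cyclin B2 RNA with both treatments.

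Subunits of one complex did not have equal levels. Within condensin, SMC2 had 66.2 ± 13.7 FPKM with SU5402 and 65.1 ± 5.51 FPKM with DMSO, while its partner SMC4 had 35.9 ± 1.12 FPKM with SU5402 and 34.4 ± 1.59 FPKM with DMSO. NCAPG and NCAPH were lower still, between 18.2 and 20.7 FPKM. Within the NDC80 complex, NUF2 had 33.6 ± 1.18 FPKM with SU5402 and 32.3 ± 1.45 FPKM with DMSO, and NDC80 had 18.9 ± 1.36 FPKM with SU5402 and 19.2 ± 1.09 FPKM with DMSO. The lowest tested member was CENPI, at 8.81 ± 0.679 FPKM with SU5402 and 7.45 ± 0.484 FPKM with DMSO, and CCNB3 had 0.046 FPKM with SU5402 and was listed at 0 with DMSO.

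**Figure D3:**
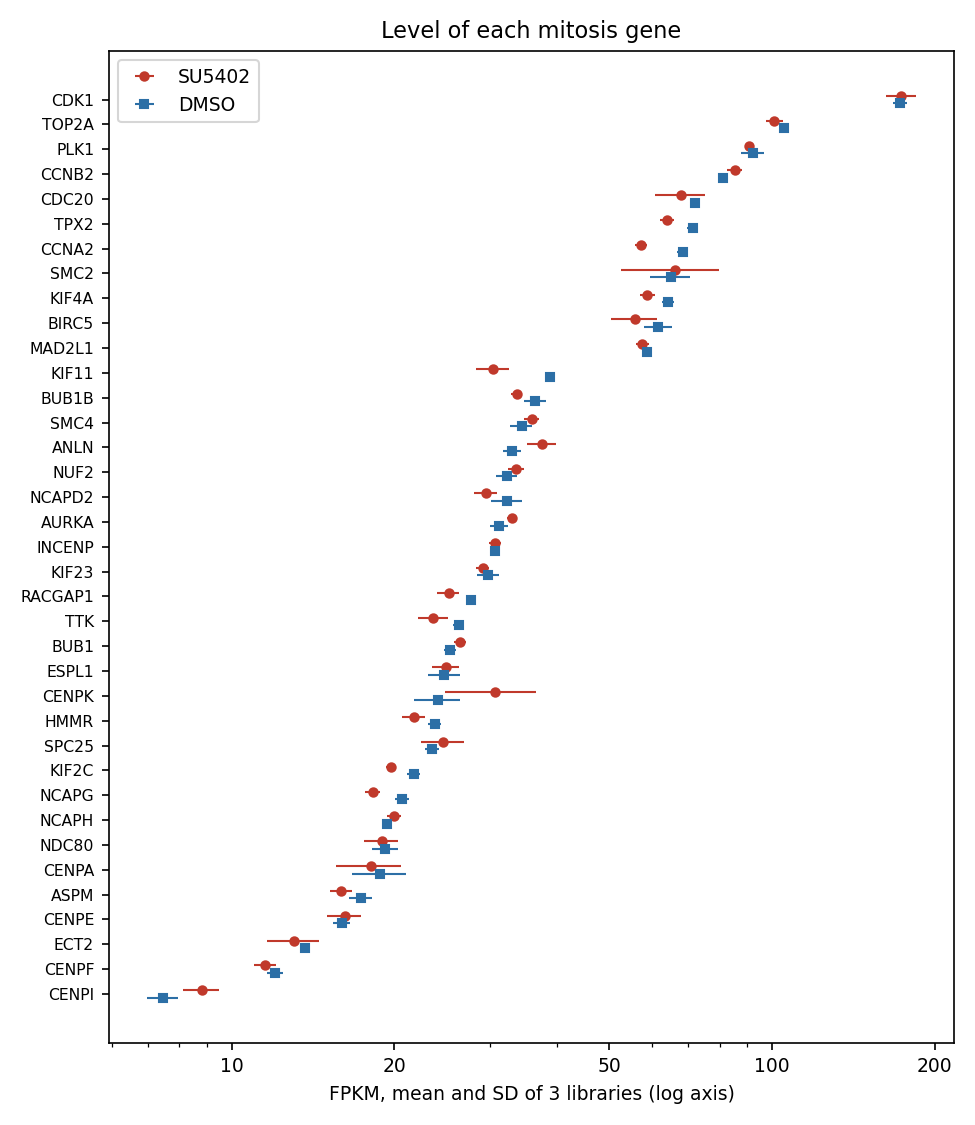
Mean FPKM and SD of 3 libraries (x axis, log scale) for the 37 tested members, ordered by the DMSO level. Levels run from 7.45 FPKM for CENPI with DMSO to 173 FPKM for CDK1 with SU5402, and SMC2 and CENPK have the longest error bars for their level.

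Libraries of one treatment agreed closely on most members. The pooled SD of log2 values within treatments had a median of 0.058 over the members, against 0.136 over all genes tested and 0.095 over genes of the members' range of level. It ran from 0.029 in INCENP to 0.225 in SMC2, with CENPK next at 0.224. SMC2 and CENPK are the only members on chromosome Z. SMC2 had 7622, 11430 and 8943 normalized counts with SU5402, against 8937, 8551 and 10049 with DMSO. The SU5402 libraries of SMC2 thus held both the lowest and the highest value, and its log2 fold change was 0.01 with an SE of 0.17.

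In birds the female carries a Z and a W chromosome and the male a pair of Z chromosomes, and the labels do not give the sex of the embryos in a pool. The summed normalized counts of 55 genes on chromosome W were 69053, 13163 and 40573 in the SU5402 libraries, against 56214, 58630 and 32442 in the DMSO libraries. SU5402 replicate 2 thus had the lowest W level of the 6 libraries and SU5402 replicate 1 the highest. From the highest to the lowest W level, SMC2 stood in exactly the reverse order over the 6 libraries, and CENPK did so within each treatment. Relative to the mean of the 6 libraries, the median log2 level of 718 genes on chromosome Z was -0.10, 0.24 and 0.04 in the SU5402 libraries, against -0.06, -0.11 and 0.05 in the DMSO libraries, while that of genes on other chromosomes stayed between 0.00 and 0.01. With the W level as a covariate in limma, a setting chosen after seeing the data, the log2 fold change of SMC2 was -0.12 with an SE of 0.06 (adjusted p = 0.22) and that of CENPK 0.22 with an SE of 0.09 (adjusted p = 0.14). CCNA2 and KIF11 remained the members called in that fit, at an adjusted p of 0.046 and 0.028, where 12.9% of all genes were called lower and 11.5% higher.

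**Figure D4:**
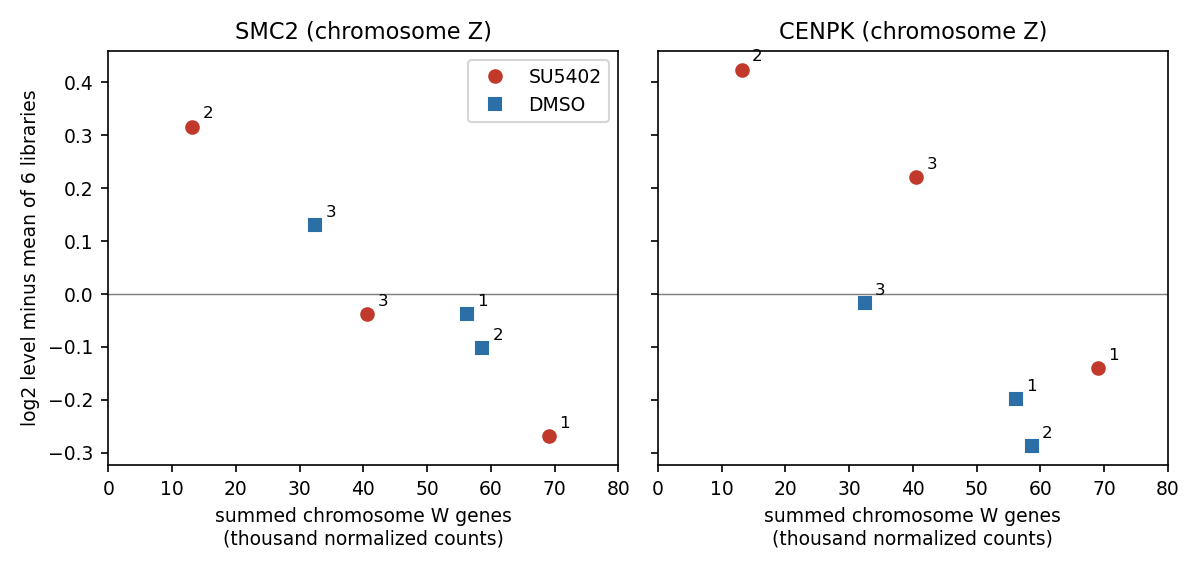
Log2 level of SMC2 (left) and CENPK (right) relative to the mean of the 6 libraries (y axis) against the summed normalized counts of chromosome W genes (x axis, divided by 1000), with the replicate number beside each SU5402 (red circle) and DMSO (blue square) library. SU5402 replicate 2, with the lowest W level, has the highest level of both genes.

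Beyond the members, 112 further genes of the mitotic machinery were looked up in 5 lists, and 88 were tested. Of these 12 fell, 1 was higher and none changed by more than 2-fold, with a median log2 fold change of -0.04, where 16.0% of all genes were lower and 14.4% higher. With edgeR 19.9% of all genes were lower and 17.9% higher. The lists were written with earlier results of these data known, so their counts are a description. The kinetochore and centromere genes outside the members had 2 lower and 1 higher of 24 tested, against 2 lower and 2 higher with edgeR, and 1 to 2 lower and 0 to 1 higher when single libraries were left out. Among them the centromere protein CENPU had 464 ± 21.7 normalized counts with SU5402, against 333 ± 61.0 with DMSO, and OIP5, which helps to load CENPA, had 742 ± 33.5 with SU5402, against 964 ± 31.3 with DMSO (SD, n = 3 each). No gene of this list was called higher when any SU5402 library or DMSO replicate 3 was left out, with no filter or with the chromosome W covariate. Of the further spindle and cytokinesis genes 4 of 22 were lower and the median log2 fold change was -0.10, and the spindle protein SPAG5 was the lowest of these at -0.50 (limma, SE 0.08, adjusted p = 0.0075). In this list 1 to 3 genes were lower when single libraries were left out and 1 with no filter, against 6 lower and 1 higher with edgeR or DESeq2.

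Cohesin and condensin II genes had the lowest median of the 5 lists, at -0.20. Of 10 tested, 3 were lower, where 16.0% of all genes were lower. Cohesin holds sister chromatids together until separase cuts it. The 3 genes, SMC3, RAD21 and STAG2, encode cohesin subunits and had log2 fold changes of -0.20, -0.24 and -0.26 (adjusted p = 0.046, 0.025 and 0.046 by limma). Most genes on this list encode cohesin or its regulators. With edgeR or DESeq2 6 genes of this list were lower, where 19.9% and 20.3% of all genes were lower. With a filter of 50 there were 5, where 37.3% of all genes were called in either direction. With no filter, upper-quartile scaling, the replicate block in limma or the chromosome W covariate there were 0, and with scaling by library total there was 1. No more than 1 was called when any single library was left out.

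Of the anaphase-promoting complex genes, 1 of 17 was lower, ANAPC10, with a log2 fold change of -0.44 (adjusted p = 0.045 by limma), and it was not called when any single library was left out. With edgeR 2 genes of this list were lower and 2 higher. Over all genes tested, limma called 16.0% lower, and edgeR called 19.9% lower and 17.9% higher. Of the regulators of mitotic entry and their transcription factors, 2 of 15 were lower, against 4 lower and 1 higher with edgeR. CDC25B, the phosphatase that removes the inhibitory phosphates from CDK1, had 4447, 4573 and 5031 normalized counts in the SU5402 libraries, against 8239, 8596 and 8992 in the DMSO libraries. Every SU5402 library of CDC25B was far below every DMSO library, and it fell 1.84-fold, a log2 fold change of -0.88 (95% interval -1.06 to -0.69, adjusted p = 0.0013 by limma). E2F8, a transcriptional repressor of the cell cycle, had a log2 fold change of -0.23 (adjusted p = 0.037 by limma). FOXM1, a transcription factor that drives G2 and M phase genes, and MYBL2, which acts with it, were not called and had log2 fold changes of -0.16 and 0.02. Both were picked after their values were seen.

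Genes of G1 and DNA replication act before mitosis. Of 29 tested, 3 were lower and 1 higher, where 16.0% of all genes were lower and 14.4% higher, and the median log2 fold change was 0.01. With edgeR 4 were lower and 3 higher, where 19.9% of all genes were lower and 17.9% higher. The lowest was CDK6, a kinase that acts with D-type cyclins, with 6707 ± 373 normalized counts in SU5402 explants and 11030 ± 830 in DMSO explants (SD, n = 3 each). RRM2, a subunit of ribonucleotide reductase, was higher, with 7372 ± 358 normalized counts with SU5402 and 5316 ± 243 with DMSO (SD, n = 3 each). The log2 fold changes were -0.72 for CDK6 (limma, SE 0.08, adjusted p = 0.0032) and 0.47 for RRM2 (limma, SE 0.07, adjusted p = 0.0064).

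**Figure D5:**
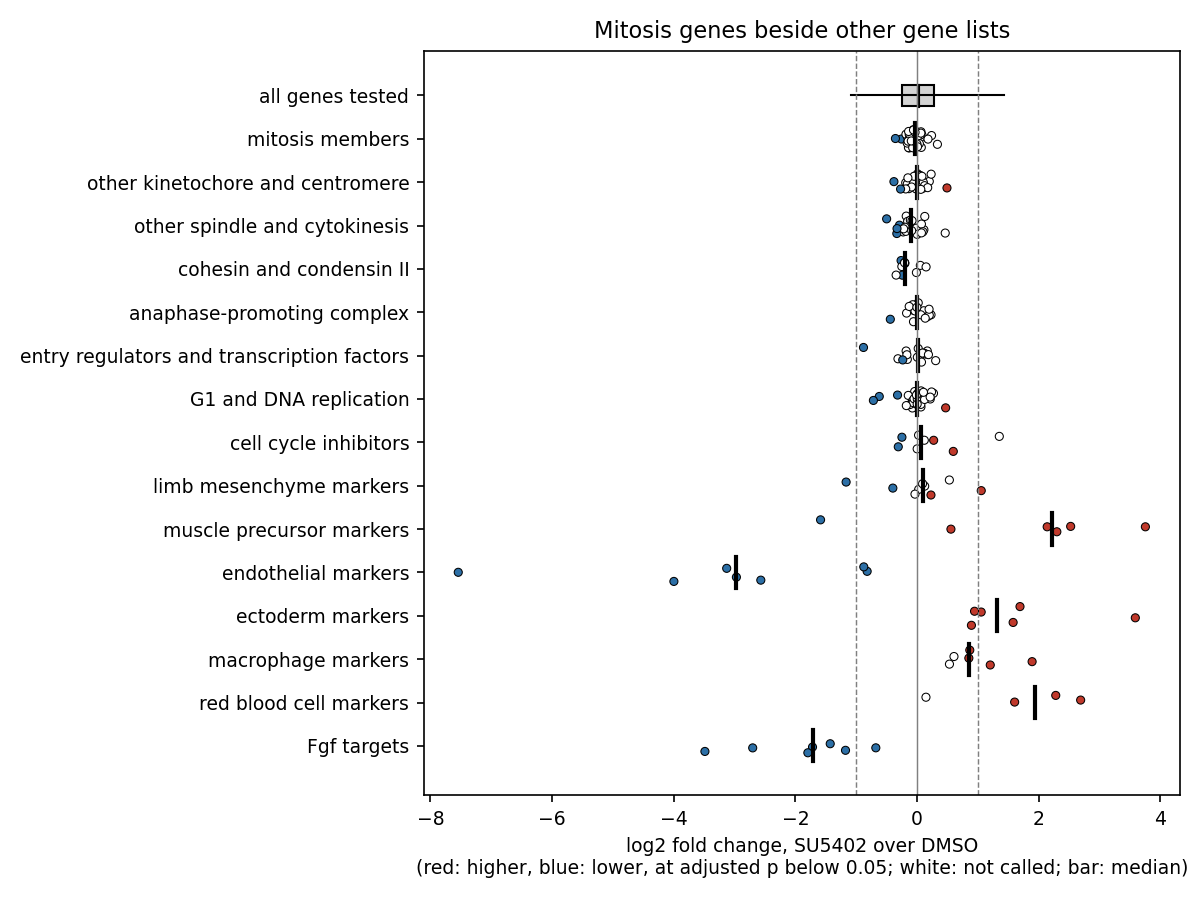
Log2 fold change, SU5402 over DMSO (x axis), of single genes in each list, with the list's median as a bar, and all genes tested as a box (quartiles, whiskers at the 5th and 95th percentiles). The mitosis members lie close to 0 with a median of -0.03, while the Fgf targets have a median of -1.72, the endothelial markers -2.97 and the ectoderm markers 1.32.

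The libraries held 29390751 to 37373688 reads on genes with SU5402 and 25849833 to 44261768 with DMSO, so that 1 read was worth 0.765 to 1.32 normalized counts. The Fgf targets were lower for 7 of 7 genes with a median log2 fold change of -1.72. The study had already reported Sprouty genes and Mkp3 (DUSP6) as lower in these data, so this is no independent check on the inhibitor. Of all genes tested, 16.0% were lower and 14.4% higher. The summed marker RNA of several cell types differed between treatments, and whether cell numbers or RNA per cell changed was not tested. Summed over their markers, ectoderm genes had 15188 to 17020 normalized counts with SU5402 and 6087 to 7426 with DMSO (6 of 6 higher), and red blood cell genes 12855 to 18505 with SU5402 and 4350 to 5266 with DMSO (3 of 4 higher). Muscle precursor genes had 3349 to 4722 with SU5402 and 2070 to 2178 with DMSO (5 higher and 1 lower of 6), and macrophage genes 1198 to 1444 with SU5402 and 655 to 709 with DMSO (4 of 6 higher). Endothelial genes had 4600 to 5182 with SU5402 and 21620 to 21962 with DMSO (7 of 7 lower). Limb mesenchyme genes had 59307 to 65229 with SU5402 and 59504 to 62144 with DMSO (2 lower and 2 higher of 9). No marker of these lists was at 0 in all libraries, and the part of these cell types in the levels of the mitosis genes was not tested.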

How the data were processed

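RNA was sequenced from 6 explant libraries, 3 with SU5402 and 3 with DMSO. Per the labels and the study's methods, poly-A RNA was sequenced, mapped with HISAT2 (2.0.5) to GRCg6a, counted with featureCounts (1.5.0-p3) and compared with DESeq2 (1.20.0). Whether counting used strand is not given in the sources used here. For each library the authors deposited a signal column, here called normalized counts, in which reads per gene had been scaled by DESeq2 size factors, and an FPKM column, scaled to a total of 33590126 in all libraries. The same tables hold the authors' mean per treatment and their own log2 fold change, p-value and adjusted p-value, which were not used. In each library 100% of normalized counts were whole multiples of 1 step within a tolerance of 0.01, which gave the reads.

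Deposited values were tested with limma (3.58.1, R 4.3.3, no intensity trend) on log2(normalized count + 1), over genes reaching 10 normalized counts in 3 or more libraries, with Benjamini-Hochberg adjustment over all genes. Fold changes are on this log2 scale, SU5402 minus DMSO, and intervals are 95% intervals from limma. P-values measure the spread between these pools. The study describes 3 replicate experiments per condition, each from several tissue samples, and terms its samples biologically independent. Whether SU5402 and DMSO pools of an experiment shared embryos is not given in the sources used here. The members and lists were chosen with earlier results of these data known. Values per library are given for CCNA2, CCNB2, CDK1, the lowest and highest member of each subgroup and called members. MKI67, SMC2, TPX2, CENPI and RAD21, where they fall outside this rule, were picked after their values were seen. Of each other list, the lowest and highest called gene are named. Genes without a symbol were matched through their NCBI gene ID in RefSeq. In the annotation 9 members overlap another gene, 7 of them one on the opposite strand (CCNB3, PLK1, SMC4, NCAPG, NCAPH, KIF2C and BIRC5), so their reads may be shared.

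Alternatives were a pseudocount of 0.5, scaling by library total or upper quartile, edgeR's quasi-likelihood test (4.0.16) with TMM or RLE factors and DESeq2 (1.42.0) on the recovered reads, limma with an intensity trend, no filter, a filter of 50, FPKM of at least 1 with a pseudocount of 0.1, the replicate number as a block each library left out, and members with a further role moved to that subgroup. The chromosome W level as a covariate, the members without chromosome Z and the members with MKI67 were added after seeing the data.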

Additional observations from a re-analysis of the deposited data

How the results depend on the processing

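Of 37 members, 5 were lower and 3 higher with DESeq2, edgeR with TMM or RLE factors, limma with an intensity trend and edgeR with the replicate block, where the 5 and 3 genes were the same in each, and 0 were lower with the replicate block in limma (adjusted p = 0.071 for CCNA2 and 0.059 for KIF11), a fit in which MKI67 was not called either (adjusted p = 0.085). With FPKM 3 were lower (CCNA2, KIF11 and NCAPG). Of all genes, 20.7% were called in either direction with the replicate block in limma and 35.3% with FPKM, against 30.4% in the main fit. This share was 38.5% with DESeq2, 37.8% with edgeR and TMM or RLE factors, 38.3% with the intensity trend and 37.5% with the edgeR block. Leaving out each library in turn gave 0 to 2 lower members, where 20.4% to 23.2% of all genes were called. The members' median log2 fold change was then -0.080 to -0.011. That median was 0.018 with scaling by library total, 0.024 by upper quartile, and -0.065 with the chromosome W level as a covariate. Without the members on chromosome Z it was -0.057. SMC2 was -0.12 with that covariate. When single libraries were left out the log2 fold change ranged over 0 in CENPA (-0.16 to 0.034), ESPL1 (-0.048 to 0.048), SMC2 (-0.15 to 0.14) and CDK1 (-0.047 to 0.035). The condensin median was -0.057 when members were placed by their other role, and -0.15 to 0.063 when single libraries were left out. The cause of these shifts was not tested.

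Whether the replicate numbers pair the libraries is not given in the labels and could not be settled with 3 libraries per treatment. Same-numbered SU5402 and DMSO libraries correlated at 0.039, 0.0032 and 0.057 in their deviations from the treatment means. For SU5402 replicates 1 and 3 the same-numbered DMSO library correlated best, while SU5402 replicate 2 correlated best with DMSO replicate 3 (0.011). The replicate block thus rests on shared numbers, and what they stand for is not given.

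With 3 pools per treatment, 26 of 37 members had a 95% interval inside a 1.25-fold change, and the intervals of the rest reached beyond it.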

Other observations

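Inhibitors of the cell cycle did not move as a group. Of 8 tested, 2 were lower and 2 higher with SU5402 in limma (Benjamini-Hochberg adjusted), with a median log2 fold change of 0.07. The log2 fold changes of these 8 genes, called or not, ran from -0.31 to 1.35. Over all genes tested, 16.0% were lower and 14.4% higher. The lowest called was CDKN1B, p27, which inhibits cyclin-dependent kinases, with 3284 ± 149 normalized counts in SU5402 explants and 4061 ± 97.9 in DMSO explants (SD, n = 3 each). Its log2 fold change was -0.31 (limma, SE 0.06, adjusted p = 0.017). The highest called was BTG2, an antiproliferative gene and a p53 target, with 4089 ± 279 normalized counts with SU5402 and 2702 ± 173 with DMSO (SD, n = 3 each), a log2 fold change of 0.60 (limma, SE 0.08, adjusted p = 0.0057). When single libraries were left out, 0 to 1 of these inhibitor genes were lower and 1 was higher. With edgeR 2 were lower and 4 higher, where 19.9% of all genes were lower and 17.9% higher.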
